A study of Mus musculus with 10 samples.

Results

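Inflammasomes are cytosolic protein complexes that form when a sensor detects a danger or microbial signal, recruit the adaptor ASC and activate caspase-1, which cleaves the precursors of IL-1β and IL-18 and the pore-forming protein gasdermin D. In mice, caspase-11 cleaves gasdermin D independently of these sensors after it binds bacterial lipopolysaccharide. Microglia are the resident macrophages of the brain parenchyma, whereas border-associated macrophages (BAM) lie in the meninges, perivascular spaces and choroid plexus. Described here are 10 inflammasome genes across the CD45+ immune cells of the mouse brain, all of which were present among the 31053 genes of the count matrix and were chosen by name: the sensors Nlrp3, Nlrp1b, Aim2 and Nlrc4, Pycard (the gene of ASC), the inflammatory caspase genes Casp1 and Casp4 (caspase-11), Gsdmd (gasdermin D), Il1b and Il18.

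CD45+ cells were sorted from whole mouse brains and profiled by droplet single-cell RNA sequencing that reads the 3′ ends of transcripts. The genotypes were WT and Nlrp3 KO, sampled at ages of 3, 6 and 9 months, and the amyloid model with intact Nlrp3 (APP/PS1) or without it (Nlrp3 KO APP/PS1), sampled at 3 and 9 months. Each of the 10 libraries was 1 pool of 3 mice (2 males and 1 female), so a genotype at an age had no replicate library. All mice were on a C57BL/6 background, the Nlrp3 deletion was constitutive and affected the whole body, and the APP/PS1 transgenes drive mutant human APP and presenilin 1 in neurons, which leads to amyloid plaques. Levels are given as counts of unique molecular identifiers (UMIs) scaled to the total UMIs of a cell type (CPM), as mean ± SD over the libraries with at least 20 cells of that type, and Nlrp3 levels come from the 5 Nlrp3 WT libraries. The cell types were defined by the authors on the same cells, so their levels are described without a test, and the level of a type was called separated from the next one in the order where the mean log2 ratio within libraries (after adding 1 CPM) exceeded its SD. Steps next to cDC2, NKT cells, monocytes, ILC2 or neutrophils rested on 1 to 3 libraries.

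The 10 libraries held 45472 cells, 40547 microglia and 4925 other cells, with 2223 to 9112 cells and 12440818 to 40682967 UMIs per library and median shares of mitochondrial UMIs of 2.44% to 3.95%. Of 45225 distinct cell barcodes, 246 occurred in at least 2 libraries, with at most 16 shared by a pair. The microglia comprised homeostatic (HM), transitioning (TM), interferon-response (IRM), immediate-early gene (IEG), disease-associated (DAM) and proliferating (PM) states. Of 25 types and states, 17 had at least 20 cells in at least 2 libraries. Microglial markers summed to 17266 CPM in HM, to 2082 CPM in BAM and to 734 CPM in T cells. Border macrophage markers summed to 6805 CPM in BAM Lyve1 and to 1269 CPM in BAM, while the monocyte genes Ly6c2, Ccr2 and Plac8 summed to 1378 CPM in BAM and to 3.61 CPM in BAM Lyve1. The type labelled BAM thus carried both sets, but the monocyte genes were not confined to monocytes, and BAM ranked 10th for them. They summed to 6092 CPM in Mono, 4489 in pDC, 1763 in NKT cells, 1512 in Mono NC, 1452 in cDC2 and 783 CPM in T cells. HM held 6.93 CPM of them, so BAM was near Mono NC and far above HM and BAM Lyve1. Whether cells labelled BAM include monocytes was not tested. The dendritic markers were highest in pDC (3306 CPM), while the conventional dendritic cells (cDC2, 1553 CPM) ranked 5th, below DAM (2580 CPM), HM (1857 CPM) and IRM (1688 CPM).

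Nlrp3 itself checked the genotype labels. Not 1 Nlrp3 UMI was found in any cell of the 5 Nlrp3 KO libraries, against 418 to 1488 UMIs in each Nlrp3 WT library. Summed over microglia, 4160 of 90862661 UMIs fell on Nlrp3 in the WT libraries (45.8 CPM) and 0 of 103402851 in the KO libraries, so the level was at least 1578-fold lower when set against a floor of 3 counts over the group.

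The 10 genes fell into different patterns across the cell types. Microglia held 94.3% of the Nlrp3 UMIs (of the Nlrp3 WT libraries), 95.9% of Nlrp1b, 94.8% of Il18, 92.8% of Pycard, 91.4% of Gsdmd, 90.9% of Aim2, 85.6% of Casp4 and 81.3% of Casp1. In contrast, microglia held 36.9% of the Il1b UMIs and 4.89% of the Nlrc4 UMIs. These shares depend on how many cells of each type the libraries held as well as on the RNA per cell, and the levels below do not depend on the number of cells.

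**Figure D1:**
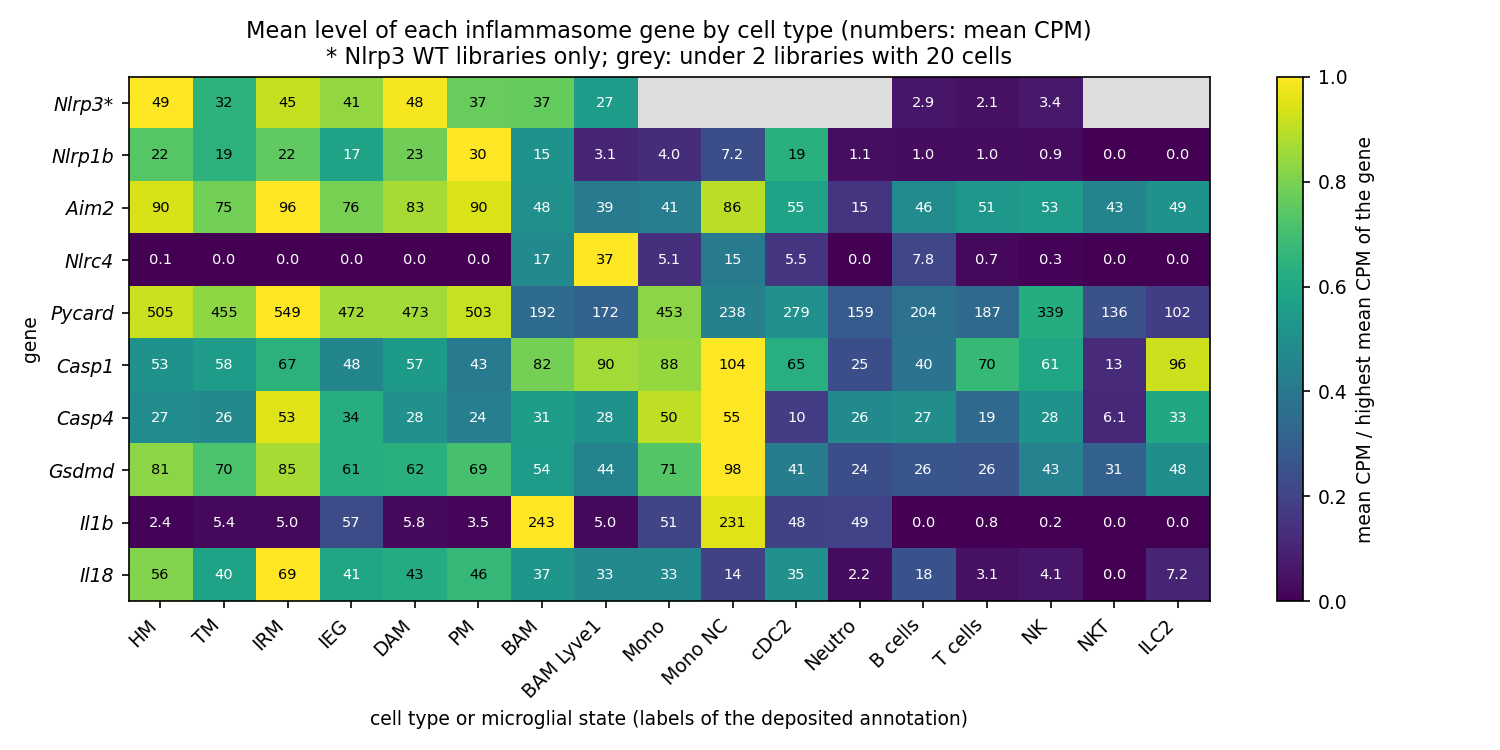
Mean level of each inflammasome gene (rows) in each cell type or state with at least 20 cells in at least 2 libraries (columns), coloured by the ratio of its mean CPM to that of the gene's highest type, with the mean CPM printed in each square, Nlrp3 from the 5 Nlrp3 WT libraries and grey where fewer than 2 of these had 20 cells. The Nlrc4 row is high in BAM Lyve1 (36.6 CPM), BAM (17.3 CPM) and Mono NC (15.2 CPM, from libraries at 30.4 and 0 CPM) and near 0 in microglia, and the Il1b row is high in BAM (243 CPM) and Mono NC (231 CPM).

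Of the sensors, Nlrp3, which responds to potassium efflux and membrane damage and lies on chromosome 11 (59541568 to 59566956, plus strand, GRCm38), was found in microglia, border macrophages, monocytes and cDC2, and less in the few neutrophils and pDC. HM reached 48.7 ± 9.49 CPM (SD, n = 5), DAM 48.1 ± 8.68, IRM 44.5, IEG 40.9, PM 37.3, BAM 37.2 ± 8.12, TM 31.6 and BAM Lyve1 26.8 ± 13.99 CPM, and no step in this order exceeded its spread over libraries. TM and PM were lower than HM in 5 of 5 libraries (log2 ratios of -0.61 with an SD of 0.24 and -0.41 with an SD of 0.27). DAM, the state that gathers around plaques, was higher than HM in 3 libraries and lower in 2. Pooled over the Nlrp3 WT libraries, cDC2 held 29.7 CPM, monocytes (Mono) 30.3 CPM and non-classical monocytes (Mono NC) 28.7 CPM. Pooled in the same way, neutrophils held 6.89 CPM (95% exact Poisson interval 1.88 to 17.7), pDC 5.32 CPM (0.644 to 19.2) and precursors 5.49 CPM (4 UMIs), with 30 to 38 cells each.

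The lymphocytes lay below microglia, border macrophages, monocytes and cDC2. Nlrp3 reached 3.40 CPM in NK cells (n = 4), 2.91 CPM in B cells and 2.13 CPM in T cells, and the step from BAM Lyve1 to NK cells exceeded the spread. These means rested on few UMIs. Of 22 Nlrp3 UMIs in T cells, 21 came from the WT pool at 6 months (10.3 CPM), and without it the T cell mean was 0.0772 CPM. NK cells and B cells held 4 UMIs each, 2 of them in the WT pool at 3 months (10.4 and 11.1 CPM). Without that pool the means of NK cells and B cells were 1.05 and 0.862 CPM. With every cell thinned to 1500 UMIs, 6.66% of HM, 5.75% of BAM and 0.330% of T cells held an Nlrp3 UMI, at median depths of 4533 UMIs in HM, 6336 in BAM and 6156.5 in T cells before thinning. In the 5 libraries, BAM held 47.4 CPM (WT, 3 months), 43.6 (WT, 6 months), 28.3 (WT, 9 months), 31.2 (APP/PS1, 3 months) and 35.7 CPM (APP/PS1, 9 months). The microglia of the same libraries held 44.1, 43.9, 34.4, 53.7 and 51.8 CPM. The WT pool at 9 months was the lowest in both.

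**Figure D2:**
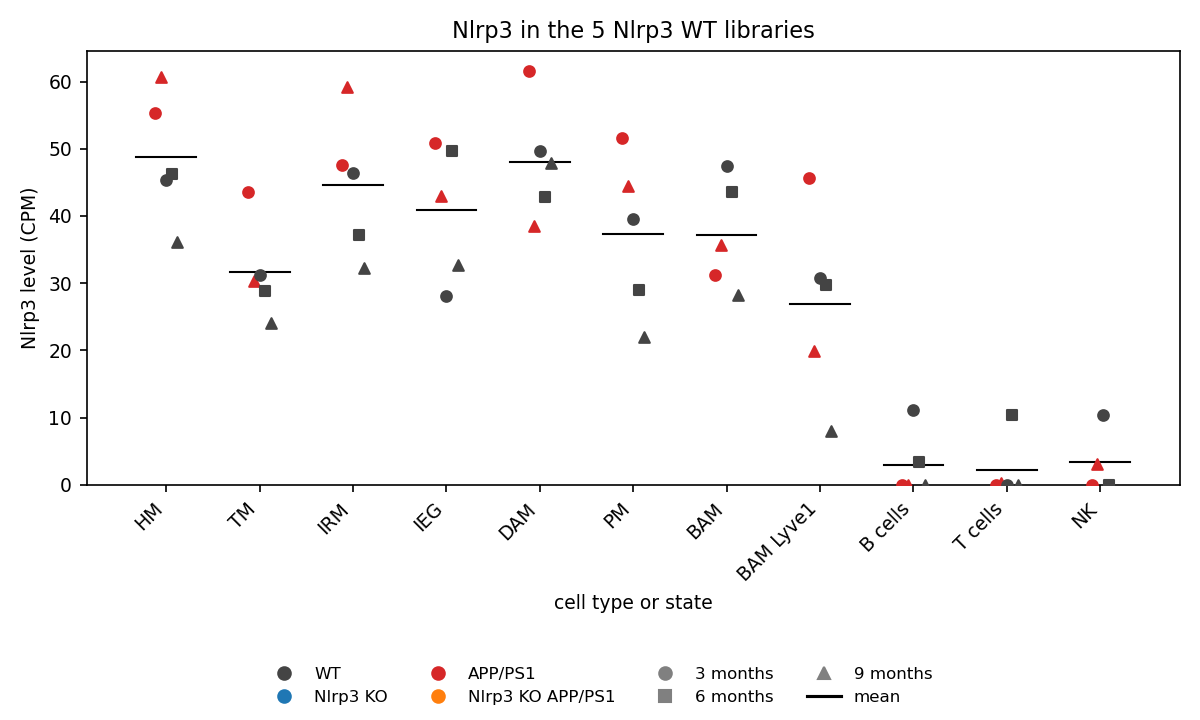
Nlrp3 level in CPM (vertical axis) by cell type or state (horizontal axis) in the Nlrp3 WT libraries, with 1 point per library, coloured by genotype and shaped by age, and a line at the mean. HM (48.7 CPM) and BAM (37.2 CPM) overlap, and T cells (2.13 CPM), NK cells (3.40 CPM) and B cells (2.91 CPM) lie near 0 in most libraries.

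Nlrp1b encodes a sensor that is set off by inhibition of the dipeptidyl peptidases Dpp8 and Dpp9, and it lies on the same chromosome as Nlrp3 (71153102 to 71230733, minus strand), 11586145 bases away. PM had 29.8 CPM, DAM 23.3, IRM 22.5, HM 22.0, TM 19.2, cDC2 18.9, IEG 17.2 and BAM 15.3 CPM. Mono NC (7.16 CPM), Mono (3.96 CPM) and BAM Lyve1 (3.12 CPM) followed, and the lymphocytes were at about 1 CPM. Mono NC held 8.69 and 5.63 CPM in 2 libraries (2 and 1 UMIs), where BAM held 11.5 and 7.52 CPM, and its pooled interval (2.53 to 15.02 CPM, 95% exact Poisson, from 6 UMIs) reached the pooled BAM level of 14.5 CPM. BAM exceeded BAM Lyve1 in 8 of 9 libraries, so Nlrp1b divided the border macrophage types in the direction opposite to Nlrc4.

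Aim2, the sensor of double-stranded DNA in the cytosol (chromosome 1, 173350879 to 173466040, plus strand, overlapping Cadm3 on the other strand), was the sensor spread most evenly over lymphoid and myeloid cells. IRM had 95.7 CPM, PM 90.2, HM 89.9 and Mono NC 85.7 CPM, and NK cells 52.9, T cells 50.9, BAM 48.1, B cells 46.3 and BAM Lyve1 39.0 CPM. The means of lymphocytes and border macrophages thus lay below those of the microglial states, including DAM (83.3), IEG (76.1) and TM (75.4 CPM). The library ranges overlapped, since BAM reached 72.5 CPM and DAM went down to 30.8 CPM. Neutrophils, at 14.6 CPM in 2 libraries, were separated from the type above them.

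Nlrc4, which with the NAIP proteins detects bacterial flagellin and secretion systems, was found mainly in border macrophages and non-classical monocytes. The gene lies on chromosome 17 (74425438 to 74459142, minus strand, overlapping CT033749.1 on the same strand, whose reads could not be separated from it here). BAM Lyve1 held 36.6 ± 8.75 CPM (SD, n = 9, from 26.1 to 56.1, median 36.4) and BAM 17.3 ± 7.76 CPM (n = 10, from 8.91 to 29.8, median 15.4). BAM Lyve1 was higher in 9 of 9 libraries that held both, by 1.20 on the log2 scale with an SD of 0.59, although the ranges of the types overlapped. Mono NC averaged 15.2 CPM, but over 2 libraries at 30.4 and 0 CPM. Pooled over all cells, Mono NC held 32.2 CPM (95% exact Poisson interval 21.4 to 46.6, from 28 UMIs), against 15.8 CPM in BAM and 37.0 CPM in BAM Lyve1, so Mono NC is not placed below BAM. B cells (7.77 CPM), cDC2 (5.51 CPM) and Mono (5.05 CPM) held less. T cells had 0.714 CPM and NK cells 0.334 CPM.

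In 40547 microglia there were 13 Nlrc4 UMIs, all of them in HM (0.069 CPM), and TM, IRM, IEG, DAM and PM were at 0 in every library. At 1500 UMIs per cell, a Nlrc4 UMI was found in 7.97% of Mono NC (11 of 138 cells), 7.59% of BAM Lyve1, 3.17% of BAM and 2.01% of Mono. The shares were 1.69% in B cells, 0.0626% in T cells and 0.0156% in HM. Each of the border macrophage types held 30.8% of all Nlrc4 UMIs. The median depth before thinning was 5572.5 UMIs in Mono NC, 5137 in BAM Lyve1, 6154 in BAM, 10785 in Mono, 4671 in B cells, 5810 in T cells and 4366 in HM.

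The 300 bases around the start of Nlrc4 (250 before and 50 after it; RefSeq, GRCm38.p6, chr17:74459059-74459358, minus strand) are shown because this gene was near 0 in microglia and present in both border macrophage types, with the match to the C/EBP motif at bases 215 to 222 in capitals.
Nlrc4: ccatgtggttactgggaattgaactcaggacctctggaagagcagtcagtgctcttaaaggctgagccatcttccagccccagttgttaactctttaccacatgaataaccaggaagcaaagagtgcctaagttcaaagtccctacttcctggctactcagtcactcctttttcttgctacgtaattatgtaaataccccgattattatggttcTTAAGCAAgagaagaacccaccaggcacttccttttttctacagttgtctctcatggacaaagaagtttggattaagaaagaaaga
Of 10 genes, 9 had such a window in the RefSeq table. The windows were searched on both strands for the letters of the CRE (TGACGTCA), kB (GGGANTTCC), ISRE (GAAANNGAA), C/EBP (TTGCNNAA) and PU.1 (GAGGAAGT) motifs and of the AP-1 motif (TGANTCA). The TATA motif, TATAAA, was searched in the same way. No match of a motif overlapped one of another in the printed windows. Of 32851 mouse promoter windows, 7.81% held the AP-1, 1.79% the CRE, 1.68% the kB, 8.56% the ISRE, 10.8% the C/EBP, 3.20% the PU.1 and 13.6% the TATA letters. A C/EBP match was also present for Nlrp1b and Pycard, a PU.1 match for Nlrp1b, Aim2 and Pycard, and a TATA match for Il18. No window of these genes held the AP-1, CRE or ISRE letters, which says only that the letters were not in these 300 bases.

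Pycard, which encodes the adaptor that links sensors to caspase-1 (chromosome 7, 127989708 to 127993867, minus strand, overlapping Gm45205 on the other strand), was higher in microglia than in border macrophages. IRM had 549 CPM and was separated from HM (505 CPM), with a higher level in 8 of 10 libraries. PM (503 CPM), DAM (473), IEG (472), TM (455) and Mono (453 CPM) followed. NK cells, at 339 CPM, were separated from Mono in 2 shared libraries and from cDC2 in 3, and exceeded T cells (206 CPM in the same libraries) in 7 of 7.

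cDC2 (279 CPM) and Mono NC (238 CPM) came next. B cells (204 CPM), BAM (192 CPM), T cells (187 CPM) and BAM Lyve1 (172 CPM) formed a lower group without separated steps, and neutrophils (159 CPM), NKT cells (136 CPM) and ILC2 (102 CPM) were lower again. BAM was below HM in 10 of 10 libraries by 1.41 on the log2 scale (SD 0.31), and BAM Lyve1 in 9 of 9. Mono exceeded Mono NC in both libraries that held at least 20 cells of each.

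Casp1 encodes the protease that matures IL-1β and IL-18 (chromosome 9, 5298517 to 5307265, plus strand), and it was spread over all lineages. Mono NC had 104 CPM, ILC2 96.1, BAM Lyve1 89.6, Mono 87.6, BAM 82.5, T cells 69.6, IRM 67.0, cDC2 65.3, NK cells 61.4, TM 57.6, DAM 56.8, HM 53.3, IEG 47.8, PM 43.3 and B cells 39.5 CPM. No step within this order exceeded its spread, while neutrophils (25.2 CPM, 2 libraries) were separated below B cells, and NKT cells had 12.8 CPM. Between types in the same library, BAM was higher than HM in 10 of 10, and IRM was higher than HM in 10 of 10.

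Casp4 begins 1562 bases after the end of Casp1 on the same strand (chromosome 9, 5308828 to 5336783). Both genes were higher in IRM than in HM in 10 of 10 libraries. For Casp1 the ranges overlapped (49.2 to 82.7 CPM in IRM, 46.0 to 58.5 CPM in HM). IRM held 52.5 ± 7.63 CPM of Casp4 (SD, n = 10, from 39.8 to 65.8, median 52.0) and HM 26.9 ± 3.89 CPM (from 23.2 to 33.5, median 25.0), so the Casp4 ranges did not overlap. The log2 ratio was 0.94 with an SD of 0.22, positive in 10 of 10 libraries. IRM are defined by interferon-induced genes, among which Casp4 is commonly counted, and the states came from clustering on variable genes of the same cells. IEG (34.3 CPM) was higher than HM in 9 of 10 libraries, while DAM (27.9 CPM), TM (26.1 CPM) and PM (23.7 CPM) did not separate from HM.

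Outside microglia, Casp4 reached 55.3 CPM in Mono NC and 50.02 CPM in Mono. The Mono NC value rested on 2 libraries at 84.5 and 26.1 CPM, and is therefore not placed above IRM. ILC2 had 33.2 CPM, BAM 31.0, NK cells 28.3, BAM Lyve1 28.2, B cells 27.4, neutrophils 26.5, T cells 18.9, cDC2 10.0 and NKT cells 6.10 CPM. Border macrophages and HM were thus at like levels of Casp4, in contrast to Casp1.

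The Casp4 start window (chr9:5308599-5308898, plus strand, GRCm38.p6) is shown for its pair of matches to the kB letters, at bases 159 to 167 and 212 to 220, in capitals.
Casp4: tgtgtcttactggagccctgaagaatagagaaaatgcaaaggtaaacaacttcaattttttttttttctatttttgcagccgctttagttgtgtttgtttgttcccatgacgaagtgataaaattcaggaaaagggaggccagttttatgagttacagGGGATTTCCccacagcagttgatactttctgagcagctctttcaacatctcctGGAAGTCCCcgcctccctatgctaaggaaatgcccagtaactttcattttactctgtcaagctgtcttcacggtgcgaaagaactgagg
Casp4 was the only one of the 9 genes with a window whose bases held the kB letters, which 1.68% of all windows held.

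**Figure D3:**
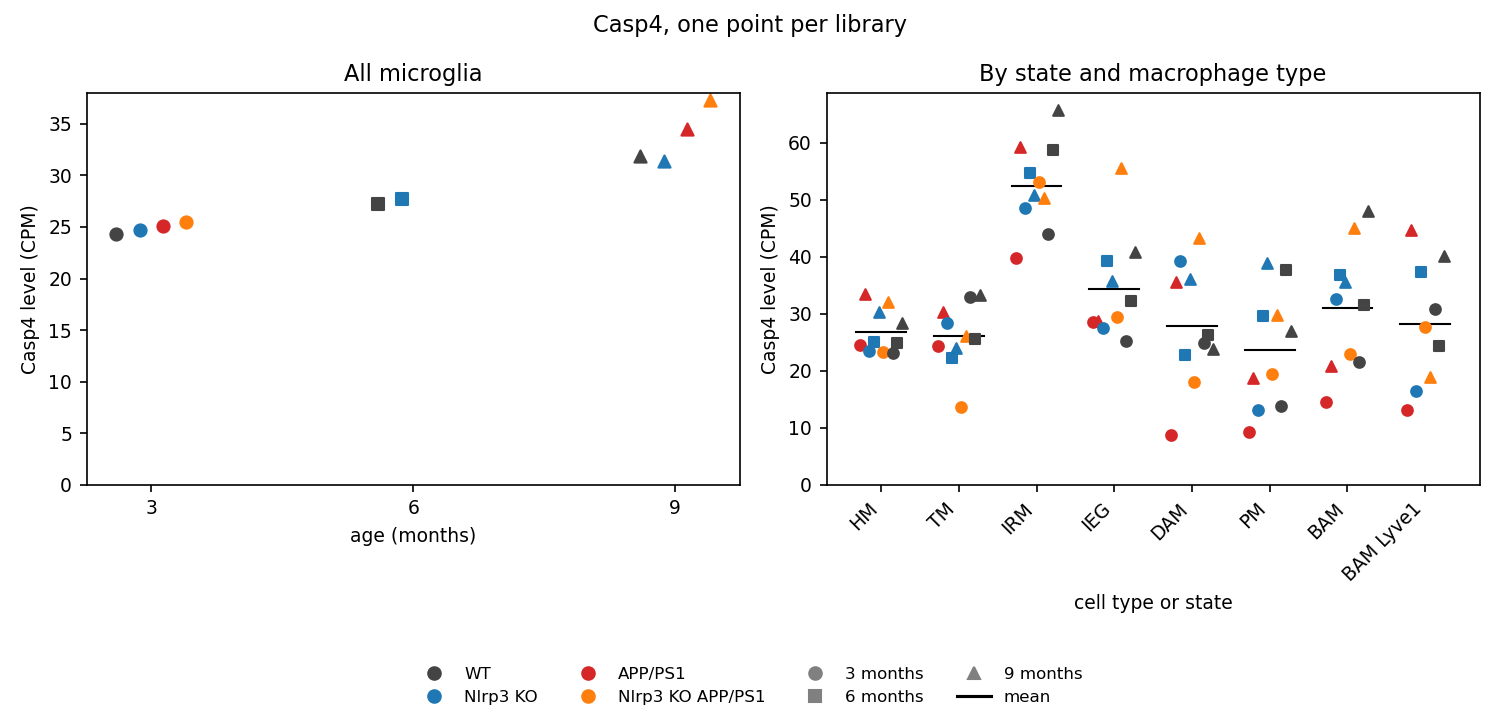
Casp4 level in CPM (vertical axes) in all microglia by age in months (left) and by microglial state and macrophage type (right), with 1 point per library, coloured by genotype and shaped by age, and a line at the mean on the right. IRM (mean 52.5 CPM) lies above HM (mean 26.9 CPM) without overlap, and all microglia lie between 24.4 and 25.4 CPM at 3 months, 27.2 and 27.7 CPM at 6 months, and 31.4 and 37.3 CPM at 9 months.

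Gsdmd, which encodes the pore protein of pyroptosis (chromosome 15, 75862327 to 75867408, plus strand), reached 97.6 CPM in Mono NC, 85.0 in IRM and 80.6 CPM in HM. Mono (71.5 CPM), TM (69.8), PM (69.1), DAM (61.8), IEG (61.0) and BAM (53.5 CPM) followed. Within libraries, IEG and BAM were below HM in 10 of 10, by more than the spread (log2 ratios of -0.41 with an SD of 0.23 and -0.59 with an SD of 0.20), while TM and PM were lower in 9 of 10 by less than it. BAM Lyve1 had 43.6 CPM, NK cells 43.3, cDC2 41.0, B cells 26.2, T cells 25.6 and neutrophils 23.6 CPM. T cells therefore had a Gsdmd level well under that of HM, while their Casp1 level (69.6 CPM) was not under that of HM (53.3 CPM).

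Il1b encodes the precursor of IL-1β, which is made after an inflammatory stimulus. Its mean levels over libraries ran from 0 CPM in B cells to 243 CPM in BAM, with Mono NC at 231 CPM from 2 libraries. Pooled over all cells, Mono NC held 414 CPM and BAM 241 CPM, so BAM is not placed above Mono NC. Il1b lies on chromosome 2 (129364570 to 129371139, minus strand, overlapping Il1bos on the other strand). BAM held 243 ± 140 CPM (SD, n = 10, from 36.7 to 477, median 235) and BAM Lyve1 4.97 CPM (n = 9), with 5 of those 9 libraries at 0. BAM exceeded BAM Lyve1 in 9 of 9 libraries, with no overlap of the ranges (the highest BAM Lyve1 library held 25.3 CPM). The 725 BAM held 38.0% of all Il1b UMIs of CD45+ cells.

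The BAM levels varied widely between pools without an order by genotype or age. WT pools held 197, 477 and 36.7 CPM at 3, 6 and 9 months, and Nlrp3 KO pools 368, 194 and 284 CPM. APP/PS1 pools held 145 and 274 CPM at 3 and 9 months, and Nlrp3 KO APP/PS1 pools 77.7 and 381 CPM. The lowest and the highest of the 10 were both WT.

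Il1b was unevenly distributed within BAM. The tenth of BAM with the most Il1b UMIs held 85.9% of them. At 1500 UMIs per cell, a Il1b UMI was found in 13.8% of BAM, 31.2% of Mono NC, 2.63% of IEG, 0.329% of HM, 0.188% of T cells and 0 of 533 B cells, which allows a share of cells with such a UMI of up to 0.563% and sets no limit on the share that expresses the gene. The T cell share had a 95% exact binomial interval of 0.0387% to 0.548% (counting error only). Without the cells with a doublet score over 0.5, 1 of 1503 T cells held such a UMI. Of 12 Il1b UMIs in T cells, 10 came from the WT pool at 6 months (4.92 CPM), and 7 of the 10 libraries had none. Pooled, T cells held 1.16 CPM with this pool and 0.240 CPM without it, and HM 2.22 CPM (95% exact Poisson interval 1.99 to 2.48). How much of the low values was free RNA was not tested.

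Of the BAM, 63 cells from 9 libraries had at least 5 Il1b UMIs, a division made after the data were seen. They held 73.5 CPM of Nlrp3 (95% exact Poisson interval 48.0 to 108, from 26 UMIs of the Nlrp3 WT libraries) and the other BAM 33.5 CPM (26.3 to 42.1). Casp4 was at 49.9 CPM (33.7 to 71.2) and 27.1 CPM (22.5 to 32.3). Border macrophage markers summed to 619 CPM in the high cells against 1355 CPM in the others, and monocyte genes to 1504 against 1362 CPM. The immediate-early genes named below summed to 1670 CPM in the high cells against 1052 CPM in the others. Pycard was at 171 CPM (140 to 208) and 200.2 CPM (187 to 214), and these intervals overlapped, as did those of Nlrp1b, Aim2, Nlrc4, Casp1, Gsdmd and Il18. The high cells had more UMIs (median 8526 against 5953), and a doublet score over 0.5 was given to 12.7% against 7.40%, and the part of these in the higher levels was not tested. The cells were pooled over libraries that differed in Il1b. The intervals therefore cover counting error and not the spread between libraries, and levels were not compared within libraries.

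Among microglia, Il1b was found mainly in IEG, which held 689 of 1211 microglial Il1b UMIs, at 56.8 ± 32.7 CPM (from 10.7 to 112, median 61.4), against 2.41 ± 0.835 CPM in HM, with IEG higher in 10 of 10 libraries. DAM had 5.85 CPM, TM 5.36, IRM 5.04 and PM 3.53 CPM. In the authors' annotation of all CD45+ cells, which draws the microglial states differently, IEG held 145 ± 148 CPM. The IEG state is defined by immediate-early genes, which dissociation also induces, and the tissue was dissociated with actinomycin D at a low temperature to limit this.

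The immediate-early genes Fos, Jun, Junb, Egr1, Ier2 and Atf3, chosen after the data were seen, summed to 941 CPM in IEG and 547 CPM in HM, and to 1124 CPM in BAM and 870 CPM in BAM Lyve1. Of the 2094 IEG, 33 with at least 5 Il1b UMIs held 571 of the 689 UMIs (2813 CPM), and the other 2061 were at 10.0 CPM. In the 33 cells the immediate-early genes summed to 4375 CPM, against 881 CPM in the others. Those 33 held 118 CPM of Nlrp3 (59.0 to 211, from 11 UMIs) against 39.0 CPM (33.6 to 45.02), and 83.8 CPM of Casp4 (48.8 to 134) against 32.2 CPM (29.0 to 35.6). Pycard was lower in them, at 281 CPM (213 to 364) against 484 CPM (471 to 497). The intervals overlapped for Nlrp1b, Aim2, Casp1, Gsdmd and Il18, and neither set held a Nlrc4 UMI. Monocyte genes summed to 4.93 CPM in the 33 cells, the level of 1 UMI there, and to 4.25 CPM in the others. The cells were pooled over libraries, the intervals cover counting error only, and levels were not compared within libraries. The part of immediate-early induction in these levels was not tested.

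Other myeloid cells also held Il1b. Mono NC had 231 CPM in the 2 libraries with at least 20 of its cells, and 414 CPM when all 138 were pooled. The exact Poisson interval of the pooled Mono NC level was 372 to 459 CPM, and that of BAM was 228 to 255 CPM. These intervals cover counting error only. Mono had 51.3 CPM, neutrophils 48.8 and cDC2 47.6 CPM over the 2 or 3 libraries with at least 20 cells, and 98.6, 33.6 and 82.8 CPM when all cells were pooled, so their order depended on the libraries used. In contrast, T cells had 0.826 CPM, NK cells 0.167 CPM, and B cells, ILC2 and NKT cells 0 CPM.

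The Il1b start window (chr2:129371090-129371389, minus strand, GRCm38.p6) is shown for its TATA letters at bases 220 to 225, in capitals, 31 to 26 bases before the start site.
Il1b: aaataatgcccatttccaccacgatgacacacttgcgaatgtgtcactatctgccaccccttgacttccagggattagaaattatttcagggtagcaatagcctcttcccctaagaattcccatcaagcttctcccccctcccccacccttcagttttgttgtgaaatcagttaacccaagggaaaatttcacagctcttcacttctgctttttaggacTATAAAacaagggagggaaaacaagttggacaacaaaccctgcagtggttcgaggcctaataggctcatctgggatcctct
Among the 32851 windows, 13.6% held the TATA letters.

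**Figure D4:**
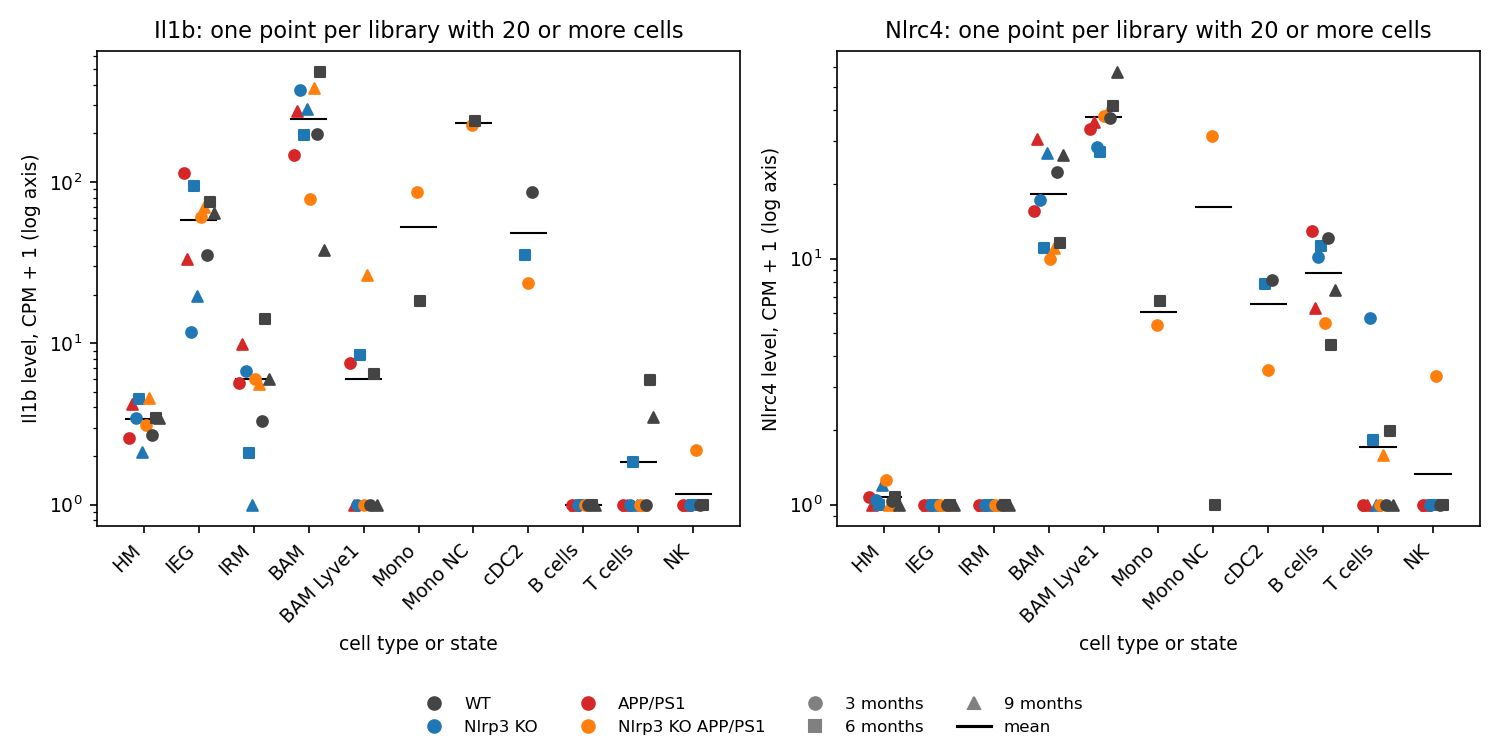
Il1b (left) and Nlrc4 (right) levels as CPM + 1 on log axes in microglial states and other cell types (horizontal axes), with 1 point per library with at least 20 cells, coloured by genotype and shaped by age, and a line at the mean. Il1b is high in BAM (36.7 to 477 CPM) and low in BAM Lyve1 (0 to 25.3 CPM), and Nlrc4 is higher in BAM Lyve1 (26.1 to 56.1 CPM) than in BAM (8.91 to 29.8 CPM) and near 0 in HM.

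Il18 encodes the other caspase-1 cytokine (chromosome 9, 50554827 to 50581840, plus strand, overlapping Bco2 and Tex12 on the other strand), and its level in HM was far above that of Il1b (2.41 CPM). IRM held 69.5 ± 8.22 CPM and was separated from HM (56.3 CPM), which in turn was separated from PM (46.2 CPM), DAM (42.7), IEG (41.0), TM (40.1), BAM (36.7), cDC2 (35.0), Mono (33.3) and BAM Lyve1 (32.6 CPM). IEG and TM were below HM in 10 of 10 libraries, so IEG was higher than HM in Il1b and lower in Il18. B cells held 17.6 CPM, Mono NC 13.7, ILC2 7.24, NK cells 4.14, T cells 3.06 and neutrophils 2.20 CPM. Mono NC therefore joined high Il1b with low Il18.

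The genes whose levels over types were most like each member (Pearson r of log2 levels over 17 types, with at least 10 CPM in 1 type) are given as a description, since types of a library share depth and several share few cells. For Nlrp3 they were Cebpa (r = 0.981), Mpeg1 (0.980) and Ltbr (0.972), for Nlrp1b Amz1 (0.955), Ptprs and Tbc1d9, and for Nlrc4 Thbd (0.946), Pltp (0.931) and Myof (0.912). For Pycard they were Oaf (0.925), Nectin2 and Afg3l1, for Il18 Erp29 (0.971), Plekho1 and Dapp1, and for Il1b Slc2a6 (0.898), Cd300lb (0.883) and Lyz2 (0.859). For Aim2 they were Exd2, Kdm3b and Bcap29, for Gsdmd Camta2 (0.924), Elac1 and Dctn2, for Casp1 Bag3 (0.822), 0610010F05Rik and Atxn3, and for Casp4 Apba3 (0.815), Ythdf1 and Prkaa1. Likeness was lowest for the caspase genes. For Nlrp3, the NKT cells, cDC2, ILC2, Mono, Mono NC and neutrophils each had only 1 Nlrp3 WT library with at least 20 cells.

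The effect of Nlrp3 deletion on the other members was then examined in microglia summed per library, over 5 pairs of pools that shared age and background and differed in Nlrp3. Levels were close in both groups. Pycard was at 502 ± 29.0 CPM without and 498 ± 30.0 CPM with Nlrp3 (SD, n = 5), Casp1 at 54.3 ± 2.65 and 52.8 ± 5.09 CPM, Casp4 at 29.3 ± 5.17 and 28.6 ± 4.40 CPM, and Il18 at 52.7 ± 3.17 and 55.3 ± 4.96 CPM. Il1b was at 7.03 ± 3.91 and 6.43 ± 2.08 CPM, with 2 pairs higher and 3 lower in the KO pools. Nlrp1b, on the chromosome of the deleted gene, was at 20.9 ± 0.717 and 22.5 ± 2.28 CPM.

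By the quasi-likelihood F test of edgeR (a call needs an adjusted p below 0.05 together with a log2 fold change beyond 1 in either direction), 0 of the 8 other members tested were called. DESeq2 called 0 as well, and 0 had an unadjusted p under 0.05. Over all 12383 genes 0.0242% were called. The members' log2 fold changes ran from -0.09 to 0.06, with a median of 0.03 against 0.01 for all genes, and their lowest adjusted p was 0.906. Nlrc4 was too low in microglia to be tested. The p-values here measure the spread between pools of mice, and a p that misses the threshold does not show that levels are equal.

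APP/PS1 microglia were compared with non-diseased microglia over 4 pairs of the same age and Nlrp3 genotype. Il1b was at 8.62 and 8.07 CPM in APP/PS1 (3 and 9 months) and at 6.89 and 10.5 CPM in Nlrp3 KO APP/PS1, against 3.40 and 5.64 CPM in WT and 3.01 and 3.33 CPM in Nlrp3 KO. The groups did not overlap at these ages, but the 6-month pools, outside the pairs, held 6.41 (WT) and 11.4 CPM (Nlrp3 KO) without the transgenes. The log2 fold change was 1.19 (SE 0.17), higher in 4 of 4 pairs, with an adjusted p of 0.123 by edgeR, so Il1b was not called.

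DESeq2 did call Il1b (adjusted p = 0.00039), as did edgeR without the pair of Nlrp3 WT pools at 9 months (log2 fold change 1.37, adjusted p = 0.0123). In HM alone the log2 fold change was 0.19 (adjusted p = 0.933). In IEG, the state with most microglial Il1b, APP/PS1 pools held 112 and 32.5 CPM and WT pools 34.4 and 63.4 CPM at 3 and 9 months. Nlrp3 KO APP/PS1 pools held 59.4 and 68.6 CPM in IEG, and Nlrp3 KO pools 10.7 and 18.7 CPM. IEG numbered 153 of 3083 microglia at 3 months and 181 of 2167 at 9 months in APP/PS1, and 251 of 7190 and 79 of 2353 in WT. They numbered 450 of 8208 and 171 of 1755 in Nlrp3 KO APP/PS1, and 256 of 5948 and 114 of 2690 in Nlrp3 KO. Over all libraries, 33 IEG cells held 571 of the 1211 microglial Il1b UMIs, with up to 83 in 1 cell, so few cells weigh heavily in these sums. The part of IEG cells in the Il1b difference was not tested beyond the value in HM.

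The other members moved less in APP/PS1 microglia, and none of them was called. Il18 was at 51.7 ± 4.06 against 57.0 ± 3.59 CPM (lower in 4 of 4 pairs, log2 fold change -0.12), Casp4 at 30.6 ± 6.24 against 28.1 ± 4.10 CPM (higher in 4 of 4, 0.12), and Gsdmd at 72.9 ± 7.47 against 79.4 ± 1.64 CPM (-0.11). Gsdmd was higher in both 3-month pairs (78.9 against 78.2 and 79.1 against 79.03 CPM) and lower in both 9-month pairs (69.7 against 81.8 and 63.8 against 78.8 CPM). In total 0 of 8 members were called by edgeR, against 0.0407% of 12282 genes. Nlrp3, in the WT pools alone and without a test, was at 52.7 ± 1.29 CPM in APP/PS1 and 39.2 ± 6.83 CPM in WT, higher in 2 of 2 pairs.

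Whether Nlrp3 deletion acted differently in APP/PS1 and in non-diseased microglia was asked with an interaction term. Of the 8 members 0 were called by edgeR, with 0 at an unadjusted p under 0.05, differences of log2 fold changes from -0.24 to 0.18 and adjusted p of 1. Over all genes 0% were called, with 310 genes at an unadjusted p under 0.05, and DESeq2 called 0 members.

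Age was compared after the data were seen, as 9 against 3 months over 4 pairs of the same genotype. Each age was its own batch in the deposited annotation, and the effects of age and batch cannot be told apart. Casp4 in microglia was at 24.4 (WT), 24.7 (Nlrp3 KO), 25.1 (APP/PS1) and 25.4 CPM (Nlrp3 KO APP/PS1) in the 3-month pools. The 9-month pools, in the same order, held 31.8, 31.4, 34.5 and 37.3 CPM. The WT and Nlrp3 KO pools at 6 months held 27.2 and 27.7 CPM. The ages did not overlap, and the log2 fold change was 0.52 (SE 0.07, adjusted p = 0.00495 by edgeR). In HM alone it was 0.45.

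Casp1, the neighbour of Casp4, was at 49.7 ± 2.52 CPM at 3 and 56.4 ± 1.88 CPM at 9 months, higher in 4 of 4 pairs (log2 fold change 0.27, SE 0.06, adjusted p = 0.0198), and its adjusted p rose to as much as 0.0853 when 1 pair was left out. Both changes were below the fold required for a call, so 0 of 8 members were called, against 3.91% of all genes. By the adjusted p alone 2 of 8 members passed, against 23.3% of all genes, so the members' share was near the background. Il1b had a log2 fold change of 0.44 (adjusted p = 0.0975).

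In the non-microglial types, 9 comparisons could be fitted with 48 tests of members other than Nlrp3, and 0 were called, by edgeR. At an unadjusted p under 0.05 there were 2, against 4.83% of all gene tests in these comparisons, so the members' share was near the background. Nlrp3 deletion called 0.0746% of all genes in BAM, 0.0678% in BAM Lyve1, 0.0303% in B cells, 0.126% in NK cells and 0% in T cells. APP/PS1 called 0.27% in BAM, 0.0571% in BAM Lyve1, 0.0469% in B cells and 0.162% in T cells. APP/PS1 in NK cells, with 2 pairs, was not fitted.

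The 2 values below the unadjusted threshold were Aim2 in BAM and Casp1 in B cells, both under Nlrp3 deletion. BAM without Nlrp3 held 56.5 ± 9.95 CPM of Aim2 and BAM with Nlrp3 39.7 ± 14.4 CPM (n = 5, log2 fold change 0.58, SE 0.22, adjusted p = 0.899). Casp1 was at 33.4 ± 0.914 and 53.1 ± 9.13 CPM in B cells (n = 3, -0.71, SE 0.28, adjusted p = 0.9997). Neither holds after adjustment by edgeR over all genes.

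The genes that distinguished BAM from BAM Lyve1 showed no difference between genotypes that passed the test. Il1b in BAM averaged 261 ± 127 CPM without Nlrp3 against 226 ± 165 CPM with it (log2 fold change 0.21, SE 0.35), and at 220 ± 135 in APP/PS1 and 221 ± 142 CPM in non-diseased pools (-0.18, SE 0.40). Nlrc4 in BAM was at 14.2 ± 7.11 and 20.4 ± 7.84 CPM by Nlrp3 genotype (-0.53, SE 0.35) and at 15.8 ± 9.61 and 22.3 ± 4.42 CPM by APP/PS1 (-0.60, SE 0.40). Nlrp3 itself was called in BAM (37.2 ± 8.12 against 0 CPM), an outcome that the deletion fixed in advance.

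**Figure D5:**
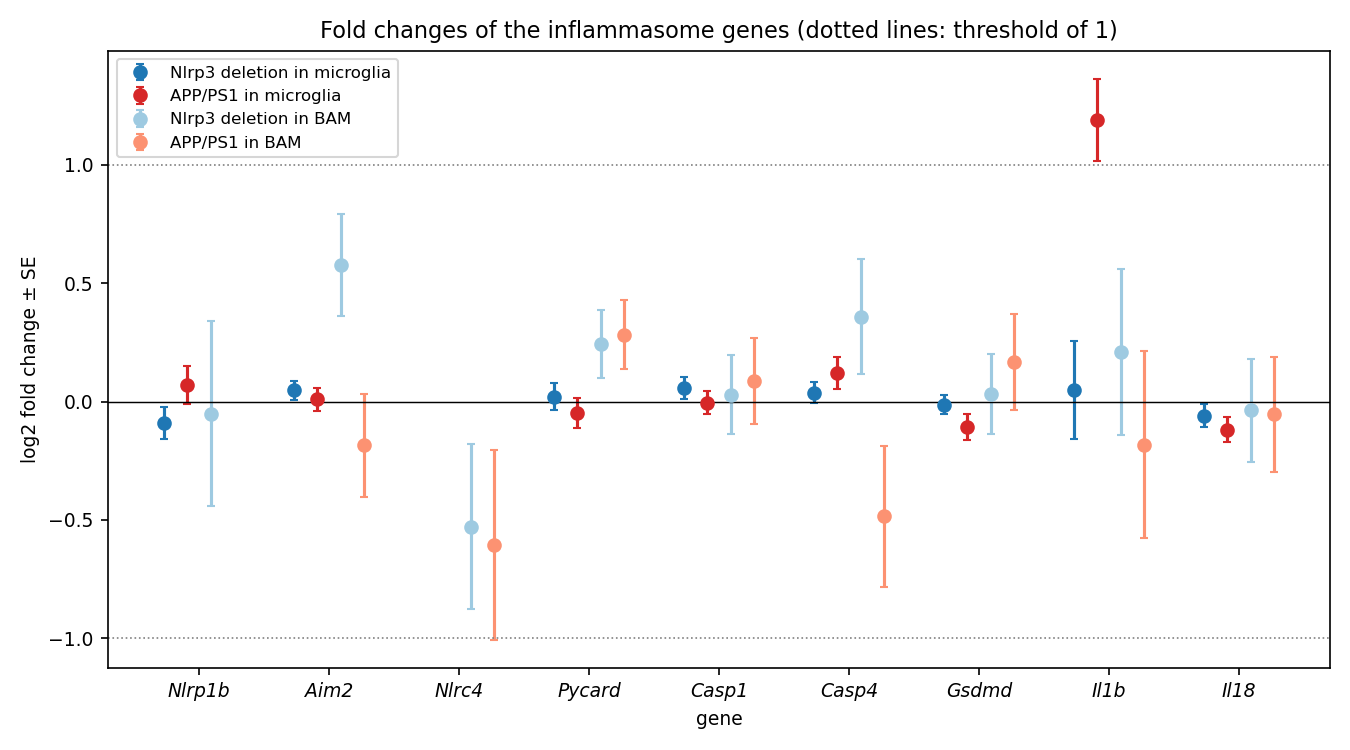
Log2 fold changes of the members other than Nlrp3 (vertical axis, bars of 1 SE) for Nlrp3 deletion and APP/PS1 in microglia and in BAM, with dotted lines at the threshold of 1. Il1b for APP/PS1 in microglia, at 1.19, is the one point beyond the lines, and the bars are wider in BAM than in microglia.

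Other genes of the pathway were examined by list. Of the sensors and adaptors outside the members, 10 of 15 were tested, of priming, receptor and ion flux genes 11 of 12, of death effectors 5 of 5, of IL-1 and IL-18 family genes 7 of 10, and of an NF-kB target list 9 of 9. The last list was chosen by the study on these samples and includes Il1b, so it is not independent evidence. No gene of any list was called by edgeR for Nlrp3 deletion or APP/PS1 in microglia, or in the non-microglial types. For Nlrp3 deletion, 1, 0, 0, 0 and 4 genes of the lists had an unadjusted p under 0.05, and for APP/PS1 2, 1, 1, 2 and 3. That is 5 and 9 of 42 genes, shares above the 4.64% and 7.47% of all genes at the same threshold, and the lists were not tested against all genes. For Nlrp3 deletion, most of these genes came from the NF-kB list. For APP/PS1, the 9 included the member Il1b through the same list.

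For Nlrp3 deletion the farthest from 0 were Ccl5 (-0.52) and Ccl2 (0.37), chemokines of the NF-kB list, with an adjusted p of 0.903 each. Ifi204, an interferon-induced DNA sensor, had 0.14, Dpp8 0.11, Naip6 -0.11, Gbp5 0.11, Gsdme -0.12, Il6 0.16 and Il1a 0.02. For APP/PS1, Ifi204 had 0.70 (adjusted p = 0.334), Ccl2 0.52 (0.431), Gbp2 -0.18, Ninj1 -0.15 and Il1a 0.05. The median log2 fold changes of the lists under Nlrp3 deletion, in the order above, were 0.05, -0.02, 0.01, 0.11 and 0.05 against 0.01 for all genes, and under APP/PS1 0.04, -0.03, -0.11, 0.25 and 0.13 against 0.00.

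With age, Ifi204 (log2 fold change 1.06, adjusted p = 0.00495) and Tnf (1.04, adjusted p = 0.00341) were called by edgeR, 2 of the 42 list genes tested against 3.91% of all genes. By the adjusted p alone, Gsdme (0.63), which encodes a relative of gasdermin D, and Il18bp (0.67), which encodes the inhibitor that binds IL-18, were also higher. Txnip (-0.24), Kcnk6 (-0.39), Tnfaip3 (-0.34), Nfkbia (-0.25) and Rela (-0.24) were lower. Tnfaip3 and Nfkbia encode inhibitors of NF-kB, and Tnf is an NF-kB target. In all, 9 of 42 passed by the adjusted p alone, against 23.3% of all genes, so both shares were near the background.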

How the data were processed

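The authors sequenced CD45+ brain cells with 10x Genomics 3′ v3 chemistry, processed the reads with Cell Ranger against mm10 (per the labels), removed outlier cells at 3 median absolute deviations and annotated the rest with Seurat. The annotation release was not given in the sources used here. The deposited matrix holds UMI counts without normalization. The deposited cell tables give cell types, microglial states, the percent of mitochondrial UMIs and a doublet score computed by the authors. Gene positions came from the GRCm38 annotation. Cells of 2 sample names that match no sample (6897 of 52369) were not used here. The type was taken from the table of all CD45+ cells and the microglial state from the table of microglia, and a type or state needed 20 cells in a library. No column of comparisons by the authors was used.

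CPM were computed from counts summed per library and type. Shares of positive cells were computed after thinning each cell to 1500 UMIs, which every cell reached. Library totals ranged from 12440818 to 40682967 UMIs, which limits low genes in small types. Intervals are 95% exact intervals and cover counting error only, and a count of 0 was set against 3 counts. Doublets were kept, and cells with a doublet score over 0.5 were left out in an alternative.

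The quasi-likelihood F test (edgeR 4.0.16 in R 4.3.3) was run on summed counts (filterByExpr, TMM, Benjamini-Hochberg adjustment over all genes tested), with the pair of pools of the same age and background (or Nlrp3 genotype) as block. These pairs come from the labels' ages and genotypes and do not join animals. Calls required an adjusted p below 0.05 together with a log2 fold change beyond 1 in either direction. On simulated counts with 200 genes changed 4-fold, the test recovered 99% for Nlrp3 deletion in microglia (12383 genes), 96.5% for APP/PS1 in microglia (12282 genes) and 86.5% for APP/PS1 in BAM Lyve1 (3502 genes).

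Alternatives were DESeq2 1.42.0, its size factors, no filter on low counts, no block, leaving out each pair or library, HM alone, no doublets, the adjusted p alone, other minimums of cells and the states of the other table. The comparison of ages and the cells with at least 5 Il1b UMIs were added after the data were seen. All 10 members are named, and from each other list the called genes and up to 3 genes farthest from 0 with at least 10 CPM, and for each member the 3 most alike genes. With age, the list genes past the adjusted p alone were named in place of these, a choice made after their values were seen. The members and lists were chosen with earlier results of these data known. Promoter windows were RefSeq sequences (GRCm38.p6).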

Additional observations from a re-analysis of the deposited data

Results flagged for a closer look

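Among 38 groups of 5 libraries examined for a library far from the rest, 1 stood apart. Gsdmd in the microglia of the Nlrp3 KO APP/PS1 pool at 9 months was at 63.8 CPM, against 78.8 to 82.4 CPM in the other 4 Nlrp3 KO libraries. Its gap to the nearest library took 0.804 of the range of the group, above the limit of 0.71 for 5 samples. Chance flags about 1 in 20 groups. The APP/PS1 pool of the same age held 69.7 CPM, and the pool with 63.8 CPM had the fewest UMIs of all 10 libraries (12440818). The cause was not tested.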

How the results depend on the processing

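Counts of called members were recomputed under 84 alternatives over 13 comparisons, and 81 gave the same count. The exceptions were APP/PS1 in microglia, with 1 member (Il1b) under DESeq2 and 0 to 1 when each pair was left out, and 9 against 3 months, with 2 members by the adjusted p alone. The fits without the replicate block of paired pools, run for Nlrp3 deletion, APP/PS1 and age in microglia, called 0 members each. Il1b in IEG moved from 56.8 to 145 CPM with the states of the annotation of all CD45+ cells, and the cause was not tested. The levels otherwise moved by less than the spread between libraries, and the shares of positive cells were higher with all UMIs, since depth sets them.

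Of 360 recomputed log2 fold changes of members, 27 turned sign, and the cause was not tested. None of these passed the threshold. In HM alone they were 0.0018 for Gsdmd with Nlrp3 deletion, 0.011 for Casp1 with APP/PS1 and 0.049 for Gsdmd with age, and without the filter Casp1 with APP/PS1 in B cells was at 0.016. With 1 pair left out, microglia with Nlrp3 deletion ranged from -0.039 to 0.055 for Pycard, -0.19 to 0.18 for Il1b and -0.035 to 0.0023 for Gsdmd. APP/PS1 ranged from -0.013 to 0.15 for Nlrp1b, -0.012 to 0.045 for Aim2, -0.10 to 0.0031 for Pycard and -0.039 to 0.024 for Casp1. The interaction ranged from -0.038 to 0.045 for Aim2, -0.41 to 0.43 for Il1b, -0.10 to 0.047 for Il18, -0.064 to 0.061 for Casp1 and -0.081 to 0.00039 for Gsdmd. Age ranged from -0.025 to 0.057 for Il18 and -0.065 to 0.023 for Gsdmd. In BAM, Il1b ranged from -0.21 to 0.66 with Nlrp3 deletion and from -0.78 to 0.60 with APP/PS1. In types other than microglia, 86.5% to 95.5% of simulated 4-fold changes were recovered, and smaller changes were not simulated.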
